A study of Mus musculus with 7 samples.

Results

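Marrow macrophage identity was followed through 10 genes picked by name: Csf1r, Adgre1, Mpeg1, Ms4a7, C1qa, C1qb, C1qc, Mrc1, Cd68 and Lyz2. All 10 were present among the 12393 genes of the array table, on 14 of its 20380 probe sets that carry a single gene symbol. Expression was measured as total RNA on Affymetrix mouse arrays of bone marrow stromal cells sorted by reporter colour, 3 arrays of Ocn+ cells (titled Topaz Osteocalcin) and 4 of Osx+ cells (titled mCherry Osterix). Ocn+ cells were green through the osteocalcin-driven transgene OcnCre-Topaz, and Osx+ cells were red through the osterix-driven transgene OsxCre-mCherry. Both groups came from double transgenic mice that carried the 2 transgenes together, were 4 to 6 weeks old and had been given tamoxifen 6 days before the sort. The colours report the activity of transgene promoters and not of the cells' own genes. Doubly coloured cells, which the protocol also sorts, are not analysed here. The labels name no gate against blood cells, no pooling of animals and no link between arrays and animals. P-values therefore measure the spread between these arrays, which may be technical.

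Macrophages of the marrow engulf dying cells and the nuclei shed by red cell precursors, and some sit on bone surfaces beside osteoblasts. Their survival depends on the receptor encoded by Csf1r, which also serves monocytes and osteoclast precursors. C1q starts the classical complement pathway by binding antibody or the surface of dying cells. It is built from A, B and C chains, products of C1qa, C1qb and C1qc, and tissue macrophages are a main source of it. The 3 genes stood next to each other in the order C1qb, C1qc, C1qa among the protein-coding genes of chromosome 4 in the RefSeq annotation.

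Promoter sequence from RefSeq (GRCm38.p6) was searched for 7 of the 10 genes, in 8 windows of 250 bases before the transcription start. No window of Csf1r, Adgre1 or C1qa was searched, so the motif counts below do not cover these genes. The windows given here 5′ to 3′ are those of C1qb and C1qc, neighbouring genes whose signals moved together, of Mpeg1 and Ms4a7, the genes whose groups did not overlap, and of Cd68, whose mean was not lower in Ocn+ cells. Capitals mark matches on either strand to the searched motifs. Of these, GAGGAA is bound by PU.1, a master regulator of macrophages, and by other ETS factors. The others were TGCTGAC (MAF factors), CACGTG (only a form of the E-box) and TTGCNNAA (C/EBP factors).

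C1qb, chr4:136886201-136886450, minus strand: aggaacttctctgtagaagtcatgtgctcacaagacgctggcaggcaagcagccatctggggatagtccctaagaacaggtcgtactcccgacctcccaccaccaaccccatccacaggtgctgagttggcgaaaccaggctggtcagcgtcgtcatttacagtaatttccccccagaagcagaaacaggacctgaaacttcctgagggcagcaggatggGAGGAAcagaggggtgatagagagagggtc

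C1qc, chr4:136892915-136893164, minus strand: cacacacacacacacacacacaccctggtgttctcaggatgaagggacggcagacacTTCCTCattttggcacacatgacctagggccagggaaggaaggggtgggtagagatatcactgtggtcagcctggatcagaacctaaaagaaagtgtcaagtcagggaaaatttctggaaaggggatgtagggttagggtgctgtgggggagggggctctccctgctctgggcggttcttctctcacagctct

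Mpeg1, chr19:12460520-12460769, plus strand: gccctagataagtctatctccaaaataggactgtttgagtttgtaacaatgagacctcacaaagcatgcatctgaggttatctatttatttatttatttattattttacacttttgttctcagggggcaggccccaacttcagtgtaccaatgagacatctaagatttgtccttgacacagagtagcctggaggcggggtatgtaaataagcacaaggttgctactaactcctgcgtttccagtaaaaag

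Ms4a7, chr19:11336147-11336396, minus strand: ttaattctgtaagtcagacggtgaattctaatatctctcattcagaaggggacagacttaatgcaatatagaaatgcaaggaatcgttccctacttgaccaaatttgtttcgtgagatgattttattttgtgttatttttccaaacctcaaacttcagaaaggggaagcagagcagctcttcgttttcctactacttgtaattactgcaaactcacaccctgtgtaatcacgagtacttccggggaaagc

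Cd68, chr11:69666171-69666420, minus strand: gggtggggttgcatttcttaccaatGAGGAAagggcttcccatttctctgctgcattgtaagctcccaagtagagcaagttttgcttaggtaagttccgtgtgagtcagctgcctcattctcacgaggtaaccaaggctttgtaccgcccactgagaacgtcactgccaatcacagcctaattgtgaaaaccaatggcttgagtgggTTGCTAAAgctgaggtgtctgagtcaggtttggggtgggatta

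GAGGAA occurred in 4 of the 8 windows, those of C1qb, C1qc, Mrc1 and Cd68, and in 23.3% of 32851 promoter windows of the same length. It began 30 bases before the start in C1qb and, on the other strand, 193 bases before it in C1qc. TTGCNNAA occurred in 1 of the 8 windows, that of Cd68, against 9.56% of all windows. TGCTGAC (3.81% of all windows) and CACGTG (6.02%) occurred in 0 of the 8, and none of the matches overlapped another. GAGGAA was thus present both for genes with lower signal in Ocn+ cells and for Cd68, whose mean was not lower. It was absent for Mpeg1, Ms4a7 and Lyz2. A further Ms4a7 window, chr19:11334696-11334945, was searched but is not printed.

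Array medians lay between 8.25 and 8.35 log2 units, and Pearson's r between any 2 arrays over all probe sets was 0.93 to 0.99. The labelled lineage was measured through 7 bone-forming genes (Runx2, Bglap, Bglap2 and Spp1 were not analysed here). Their mean was 12.94 to 13.53 on the Ocn+ arrays and 12.49 to 13.57 on the Osx+ arrays, with a median difference of 0.12 log2 units. The 2 of smallest p were Dmp1, a matrix protein of osteocytes, at 0.66 (SE 0.57), and Alpl, which encodes tissue-nonspecific alkaline phosphatase, at 0.12 (SE 0.14).

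Relative to Osx+ cells, Ocn+ cells had less signal for 7 of the 10 macrophage genes, by 1.17 to 2.11 log2 units. The differences of Csf1r, Cd68 and Lyz2 lay between -0.19 and 0.28, with intervals that reached 1.18 for Csf1r and 1.21 for Cd68, so that equal signal was not shown. The 7 were Adgre1, Ms4a7, Mpeg1, Mrc1 and the 3 C1q genes. None passed the test over all genes: limma called 0 of the 10 at an adjusted p under 0.05, and 0% of the 12393 genes, with the smallest adjusted p over all genes at 0.108. The members' adjusted p-values ran from 0.728 to 0.999. At an unadjusted p under 0.05 limma found 6 of the 10 lower in Ocn+ cells, where 1.83% of all genes were lower at that level. That count rested on single arrays, as it was 2, Mpeg1 and Ms4a7, without Ocn+ replicate 2 (0.92% of all genes) or Osx+ replicate 2 (1.55%). It was 3, with Mrc1 added, without Osx+ replicate 1 (3.45%) or Osx+ replicate 3 (2.05%). The arrays of the groups were apart, with every Ocn+ array below every Osx+ array, for 2 of the 10 genes and for 2.53% of all genes. The median difference was -1.61 over the members and 0.02 over all genes, and 8 of the 10 were below 0, as were 47.3% of all genes. In sorted bulk RNA, fewer macrophages in a sample and less of these transcripts per macrophage cannot be told apart.

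**Figure D1:**
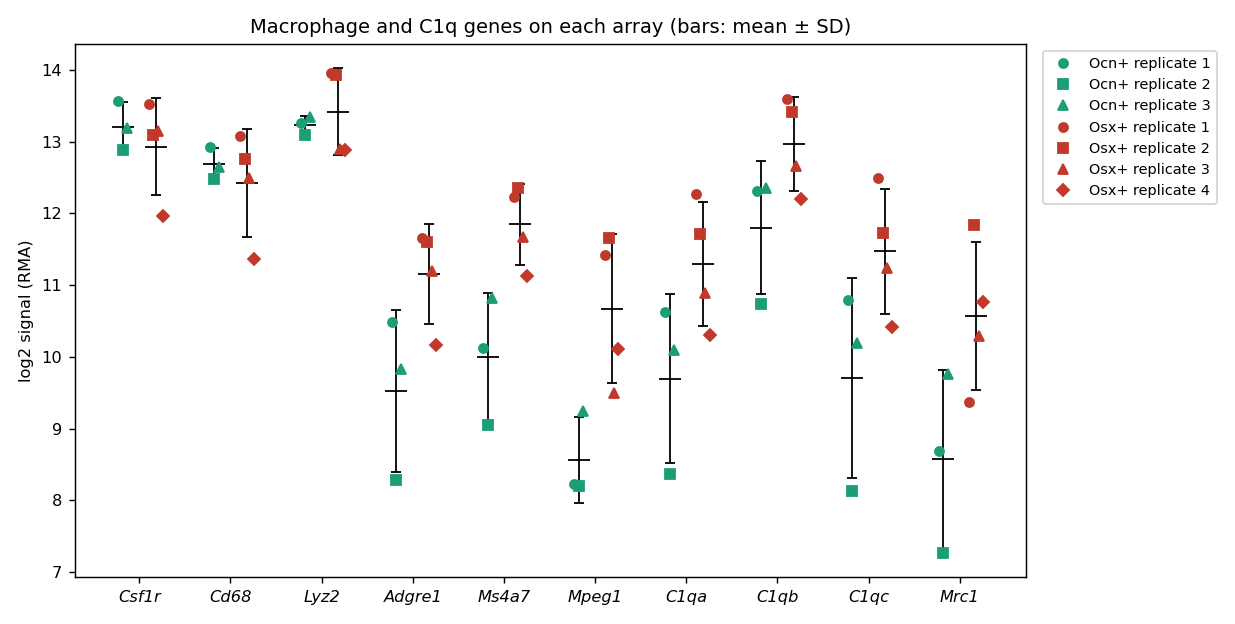
Log2 signal (vertical axis) of the 10 genes on each of the 7 arrays, with Ocn+ arrays in green on the left of each gene and Osx+ arrays in red on the right. Horizontal bars and whiskers give the mean ± SD of 3 Ocn+ and 4 Osx+ arrays. Ocn+ replicate 2 is the lowest array for 7 genes, and Osx+ replicate 4 is the lowest for Csf1r, Cd68 and Lyz2.

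Csf1r, the receptor for the growth factors CSF1 and IL-34, stood at 13.56, 12.88 and 13.19 log2 units in Ocn+ cells, against 13.53, 13.10, 13.15 and 11.96 in Osx+ cells. The groups overlapped, and Osx+ replicate 4 was the one array apart. The difference was 0.28 (SE 0.38, 95% interval -0.63 to 1.18, limma adjusted p = 0.999). The other Csf1r probe sets gave 0.37 (SE 0.52) and 0.45 (SE 0.63), the same direction with a wider spread. Without Osx+ replicate 4 the difference was -0.046, so its direction depended on that array.

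Cd68 encodes a lysosomal membrane glycoprotein of macrophages that osteoclasts also carry. Its signal was 12.93, 12.48 and 12.65 in Ocn+ cells and 13.08, 12.76, 12.49 and 11.36 in Osx+ cells. It followed the arrays as Csf1r did, again with Osx+ replicate 4 lowest. The difference was 0.26 (SE 0.40, 95% interval -0.68 to 1.21, limma adjusted p = 0.999), and it was -0.091 without that array.

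Lyz2, the lysozyme of myeloid cells, is expressed by neutrophils as well as macrophages. It had 13.26, 13.09 and 13.34 log2 units on the Ocn+ arrays, with an SD of 0.13, against 13.96, 13.92, 12.90 and 12.88 on the Osx+ arrays, with an SD of 0.61. The Osx+ arrays fell on either side of the Ocn+ arrays, and the difference was -0.19 (SE 0.33, 95% interval -0.97 to 0.59, limma adjusted p = 0.999). Lyz1 is a near-identical paralog whose probes can bind Lyz2 RNA, and its brightest probe set tracked Lyz2 with r = 0.99 over the 7 arrays and differed by -0.21 (SE 0.28). The signal of the 2 lysozymes is therefore uncertain as to its source. The third Lyz1 probe set was dim, at 4.95 to 5.44 in Ocn+ cells and 4.86 to 6.50 in Osx+ cells.

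Adgre1 encodes the adhesion receptor that is the standard surface antigen of mouse macrophages. Its values were 10.48, 8.28 and 9.82 in Ocn+ cells, against 11.66, 11.60, 11.19 and 10.17 in Osx+ cells. The groups met at Ocn+ replicate 1 and Osx+ replicate 4, and the other arrays were ordered by group. Ocn+ cells averaged 9.53 ± 1.13 (SD, n = 3) and Osx+ cells 11.16 ± 0.69 (SD, n = 4), which is 3.09-fold lower in Ocn+ cells (difference -1.63, SE 0.58, limma adjusted p = 0.888).

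Ms4a7, a membrane-spanning protein of the MS4A family found on tissue macrophages, had the clearest separation with Mpeg1. It stood at 10.13, 9.05 and 10.82 in Ocn+ cells and at 12.23, 12.36, 11.67 and 11.13 in Osx+ cells. Every Ocn+ array lay below every Osx+ array, with 0.31 log2 units between Ocn+ replicate 3 and Osx+ replicate 4. The difference was -1.85 (SE 0.47, 95% interval -2.96 to -0.74, limma adjusted p = 0.728), or 3.6-fold lower.

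Mpeg1 encodes a pore-forming protein that attacks engulfed bacteria. Ocn+ arrays gave 8.23, 8.20 and 9.25, against 11.42, 11.65, 9.49 and 10.11 for Osx+ arrays. Here too the groups were apart, by 0.24 between Ocn+ replicate 3 and Osx+ replicate 3. Mpeg1 had the largest difference of the 10 genes, -2.11 (SE 0.58, 95% interval -3.48 to -0.74, limma adjusted p = 0.731), or 4.32-fold lower in Ocn+ cells. Within the Osx+ group it spanned 2.16 log2 units, more than the difference itself.

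Mrc1, the mannose receptor that takes up glycoproteins from tissue fluid, ordered the arrays differently. It had 8.69, 7.27 and 9.76 log2 units in Ocn+ cells and 9.36, 11.84, 10.30 and 10.76 in Osx+ cells. Osx+ replicate 1, which was the highest or next to highest Osx+ array for each of the other genes lower in Ocn+ cells, was the lowest for Mrc1 and fell below Ocn+ replicate 3. The difference was -1.996 (SE 0.73, 95% interval -3.71 to -0.28, limma adjusted p = 0.901).

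The 3 C1q chains ordered the arrays much alike. C1qa stood at 10.62, 8.37 and 10.10 in Ocn+ cells, against 12.26, 11.72, 10.90 and 10.31 in Osx+ cells. C1qc had 10.79, 8.12 and 10.20 in Ocn+ cells and 12.50, 11.73, 11.24 and 10.42 in Osx+ cells. In both genes Ocn+ replicate 2 was far below the rest, and Ocn+ replicate 1 lay above Osx+ replicate 4, so that the groups overlapped. Differences were -1.60 for C1qa (SE 0.65, 95% interval -3.14 to -0.06) and -1.76 for C1qc (SE 0.72, 95% interval -3.46 to -0.06), with a limma adjusted p of 0.935 for each.

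C1qb had 12.32, 10.74 and 12.35 log2 units in Ocn+ cells and 13.59, 13.42, 12.66 and 12.21 in Osx+ cells, a difference of -1.17 (SE 0.51, limma adjusted p = 0.956). Its interval, -2.36 to 0.03, reached 0. The other probe sets of C1qb differed by -1.09 (SE 0.47) and -1.43 (SE 0.68), so all 3 had the same direction. The log2 ratio of C1qa to C1qc within an array stayed between -0.34 and 0.24 on all 7 arrays, while each gene spanned several log2 units. On the Ocn+ arrays it averaged -0.01 ± 0.22 (SD, n = 3), and on the Osx+ arrays -0.17 ± 0.14 (SD, n = 4). On its brightest probe set C1qb varied less than these 2. Its dimmest set, the one that differed by -1.43, ran from 8.70 to 12.57, where C1qa ran from 8.37 to 12.26. The log2 ratio of the brightest C1qb set to C1qc ran from 1.10 to 2.61. It averaged 0.60 more on the Ocn+ than on the Osx+ arrays, where only this change is read and not the level.

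Single arrays weighed on these values. Without Ocn+ replicate 2 the difference was -0.94 for C1qa, -0.63 for C1qb, -0.97 for C1qc, -1.004 for Adgre1 and -1.34 for Mrc1, and the median over the members was -0.95. Ms4a7 and Mpeg1 kept more of theirs, at -1.37 and -1.93. Without Osx+ replicate 4 the Ocn+ arrays lay below all Osx+ arrays for 6 members, Adgre1, C1qa, C1qb, C1qc, Ms4a7 and Mpeg1, and for 4.03% of all genes. Without Ocn+ replicate 1 this held for 5 members and 5.66% of all genes. Direction was kept for the 7 lower genes in each of these fits.

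**Figure D2:**
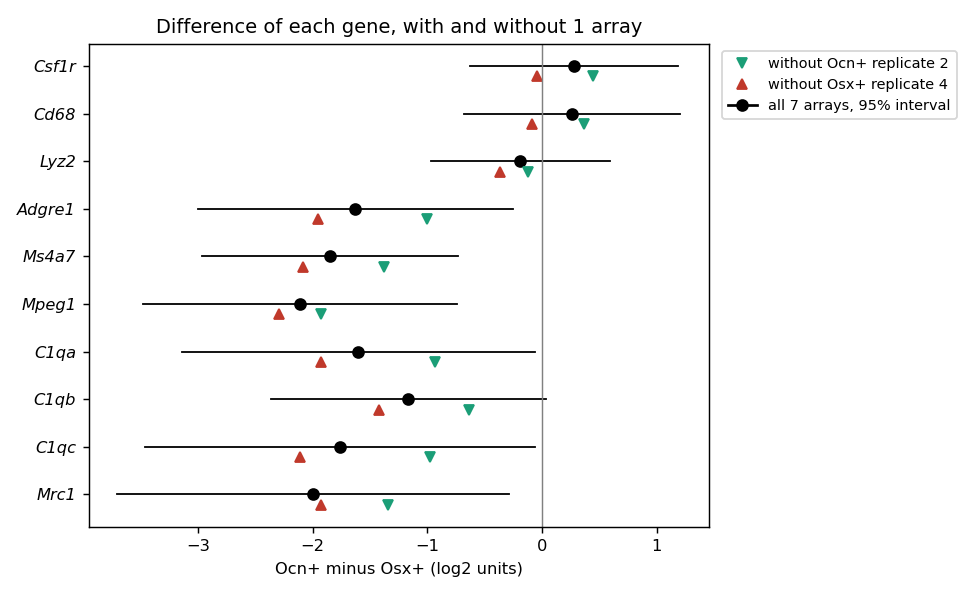
Ocn+ minus Osx+ difference in log2 units (horizontal axis) of each gene, with the 95% interval from limma over all 7 arrays in black. Triangles give the difference without Ocn+ replicate 2 (green) and without Osx+ replicate 4 (red). The 7 lower genes stay left of 0 in both, while Csf1r and Cd68 pass to -0.046 and -0.091 without Osx+ replicate 4.

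Xist, the transcript of the inactive X chromosome, was high on 4 arrays (12.33 to 12.96) and low on 3 (4.87 to 5.79), and both classes held both groups. Among the high-Xist arrays, 2 Ocn+ and 2 Osx+, the median difference over the members was -1.80. Among the low-Xist arrays it was -0.95, on a single Ocn+ array against 2 Osx+ arrays. In each class 8 of the 10 members were below 0. Mpeg1 differed by -2.16 among high-Xist and -2.23 among low-Xist arrays and Ms4a7 by -1.81 and -1.82, whereas C1qa differed by -1.78 and -0.96 and Mrc1 by -2.79 and -1.14. Whether the classes differ was not tested.

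Each gene was also set against Csf1r of the same array, by the brightest Csf1r probe set only. This subtraction leaves out any factor common to an array, and only its change between groups is read here, since levels of different probe sets cannot be compared. Adgre1 minus Csf1r was -3.08, -4.60 and -3.37 on the Ocn+ arrays, against -1.86, -1.50, -1.96 and -1.79 on the Osx+ arrays. The Osx+ arrays, which had spanned 1.5 log2 units in Adgre1 itself, came within 0.46 of each other. This narrowing is given for 1 Csf1r probe set alone. The others, with an SD over the Osx+ arrays of 0.91 and 1.16 against 0.68, were not subtracted. C1qa minus Csf1r averaged -3.52 ± 0.87 (SD, n = 3) on the Ocn+ arrays and -1.64 ± 0.44 (SD, n = 4) on the Osx+ arrays.

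By this measure Ocn+ arrays lay below all Osx+ arrays for 6 of the other 9 members, Adgre1, Ms4a7, Mpeg1, C1qa, C1qb and C1qc, and for 1.92% of 12392 genes. Differences between the group means of the 6 ran from -1.45 for C1qb to -2.39 for Mpeg1, where the median over all genes was -0.26. Mrc1 differed by -2.27 but overlapped, because Osx+ replicate 1 stood at -4.16. Cd68 did not separate, at -0.52 ± 0.12 (SD, n = 3) in Ocn+ cells and -0.51 ± 0.15 (SD, n = 4) in Osx+ cells. Lyz2 differed by -0.47 and overlapped. Leaving out each array gave 6 or 7 such members, the first 6 in every case. Without Osx+ replicate 4, the array of lowest Csf1r, it was those 6 and 1.99% of all genes, the same 6 that were apart without that array and without the subtraction. Without Ocn+ replicate 2 the share over all genes was 10.4%, and without each of the remaining arrays it was 2.27% to 6.79%. Whether these genes and Csf1r differed unequally between the groups was not tested.

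**Figure D3:**
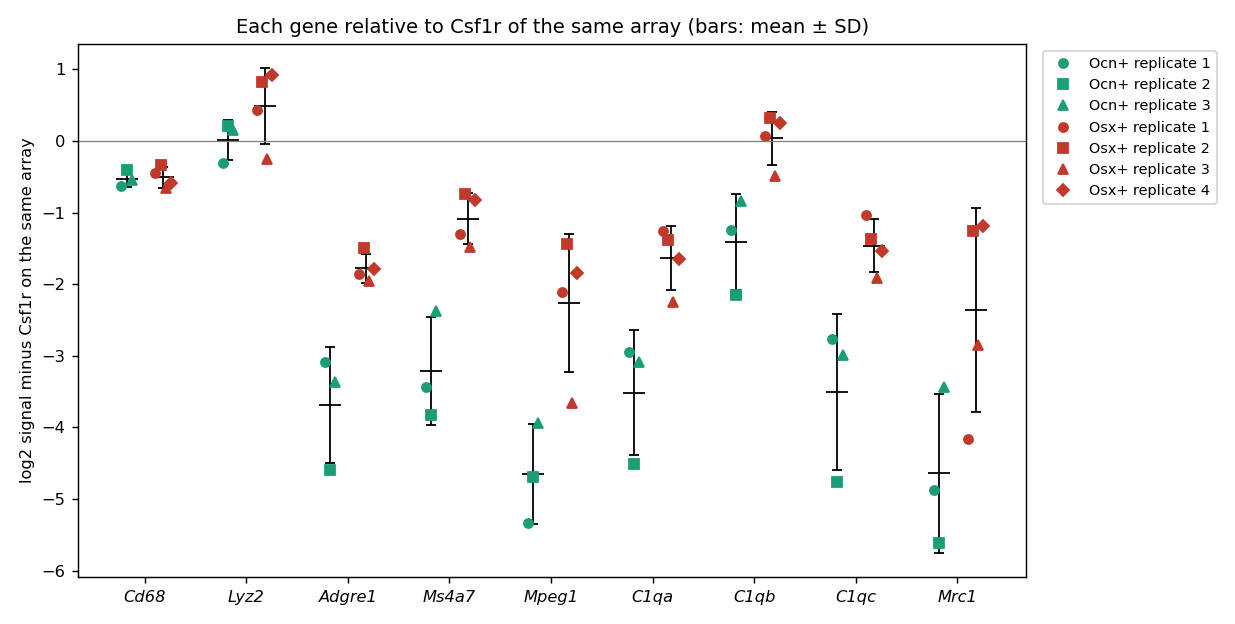
Log2 signal of 9 genes minus that of Csf1r on the same array (vertical axis), Ocn+ arrays in green on the left and Osx+ arrays in red on the right of each gene, with mean ± SD. The colours do not mix for Adgre1, Ms4a7, Mpeg1 and the 3 C1q genes, and they mix for Cd68, Lyz2 and Mrc1.

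Across the 7 arrays the genes fell into sets that varied together, described here without a test because arrays of both groups are pooled and share their normalization. Pearson's r was 0.995 between C1qa and C1qc, 0.98 between C1qa and Adgre1 and 0.91 between Mpeg1 and Ms4a7. Csf1r and Cd68 were paired at 0.98, and C1qa and Csf1r only at 0.37. Without Ocn+ replicate 2 these were 0.991, 0.94, 0.93, 0.98 and 0.43 in the same order. Without Osx+ replicate 4 the first 3 were 0.995, 0.98 and 0.91, but Csf1r and Cd68 were at 0.87 and C1qa and Csf1r at 0.63, so the contrast between the sets was smaller. Mrc1 was closest to Ms4a7 (0.82). Its r with Csf1r was -0.27, but leaving out Osx+ replicate 4 gave 0.038 and leaving out Ocn+ replicate 2 gave -0.54.

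**Figure D4:**
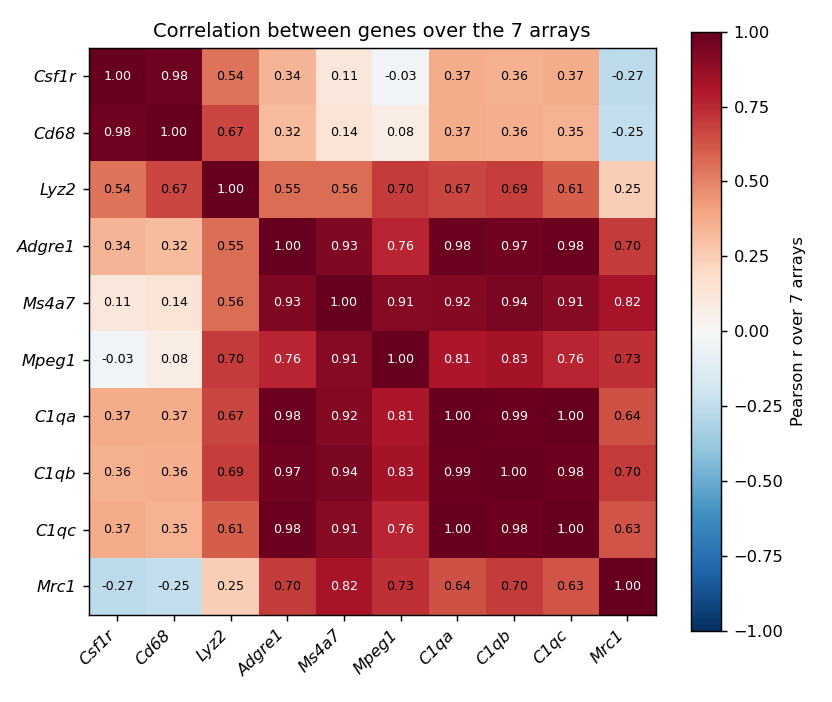
Pearson's r over the 7 arrays between each pair of the 10 genes, from blue (-1) to red (1). Csf1r and Cd68 form a block at 0.98, and Adgre1, Ms4a7, Mpeg1 and the C1q genes form another with values of 0.76 to 1.00.

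Of 6186 brighter genes outside the list, 25 had r above 0.9 with the mean of the 3 C1q genes. The 8 most alike were Fcrls (0.98), C3ar1 (0.98), Pf4 (0.97), Aif1 (0.96), Cd83 (0.96), Gpnmb (0.96), Rgs1 (0.95) and Clec4n (0.94). Without Ocn+ replicate 2 their r was 0.92 to 0.98. C3ar1 is the receptor for the complement fragment C3a, Aif1 an actin-binding protein of macrophages and microglia, Pf4 a chemokine known from platelets, and Gpnmb a glycoprotein of phagocytes and bone cells. Their differences ran from -1.78 (SE 0.70) for Aif1 to -0.76 (SE 0.36) for Cd83, none passing over all genes.

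Most other genes of resident macrophages had lower signal in Ocn+ cells as well. Of 30 listed genes 29 were measured (Timd4 was not analysed here), and 25 had a difference below 0, as did 47.3% of all genes. In either direction 0 passed. At an unadjusted p under 0.05 limma found 3 lower in Ocn+ cells, where 1.83% of all genes were lower, and 1 higher. Some of the 25 were dim, such as Vsig4, with means of 3.66 in Ocn+ and 4.32 in Osx+ cells. The median difference was -0.72, beside 0.02 over all genes, and the list mean was 8.67 to 9.31 on the Ocn+ arrays and 9.24 to 10.14 on the Osx+ arrays. The members of smallest p were Msr1, a scavenger receptor, at -1.05 (SE 0.30, limma adjusted p = 0.758), and Gas6, a bridge between dying cells and phagocytes that other cells also secrete, at 0.84 (SE 0.32, limma adjusted p = 0.935). By Pearson's r over the arrays 21 of the 29 were closer to the C1q mean than to Mrc1 or Csf1r, 5 were closest to Mrc1 and 3 to Csf1r. Closest means only the largest r, which was as low as 0.27 with the C1q mean for Sirpa and 0.26 with Csf1r for Hmox1. The matching shares over all genes were not computed.

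The 5 genes nearest Mrc1 were Lyve1, Cd163, Adgre4, Cx3cr1 and Mertk, found after their values were seen. Cd163, the scavenger receptor for haemoglobin, had 7.67, 7.66 and 8.32 log2 units in Ocn+ cells, against 6.73, 10.73, 8.82 and 9.66 in Osx+ cells. Like Mrc1 it was lowest in the Osx+ group on replicate 1. Cd5l, a secreted protein of macrophages, was also named after its values were seen and showed the reverse. It had 8.52 on Osx+ replicate 1 and 4.75 to 4.81 on the other Osx+ arrays, and 4.35 to 4.77 on the Ocn+ arrays. Its high signal rests on that array alone. Spic, a transcription factor of red pulp and marrow macrophages that recycle iron, was also highest there, at 10.34, and differed by -1.80 between the groups (SE 0.72, limma adjusted p = 0.935). These genes thus did not share the same brightest Osx+ array. Whether the Osx+ arrays differ in this way over macrophage genes in general was not tested.

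Spic and Cebpb were the genes of smallest p among 12 measured genes of the CSF1 axis and its transcription factors, a list that holds Csf1r itself. Cebpb, a factor of inflammatory and granulocytic genes, stood at 12.30, 12.16 and 12.15 in Ocn+ cells and 10.66, 10.96, 11.12 and 11.27 in Osx+ cells, a difference of 1.20 (SE 0.19, limma adjusted p = 0.556). Of the 12 genes 0 passed, 5 were below 0 and the median was 0.22.

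The partners of C1q in the complement system had differences on both sides of 0. Among 11 measured genes 0 passed, 4 were below 0 and 7 above, with a median of 0.28 log2 units. C1ra and C1s1, the proteases that C1q activates, differed by 0.73 (SE 0.48) and 0.83 (SE 0.72), and are named as the partners that complete the complex. The members of smallest p were Cd93, an endothelial and myeloid receptor once described as a C1q receptor, at 1.20 (SE 0.49, limma adjusted p = 0.935), and C3ar1, which is also in the resident macrophage list, at -1.35 (SE 0.57, limma adjusted p = 0.938). The list mean was 9.63 to 10.37 on the Ocn+ arrays and 9.27 to 10.19 on the Osx+ arrays.

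Markers of other blood and vessel cells differed in signal between the groups, and their part in the macrophage values was not tested. Osteoclasts share Csf1r and Cd68 with macrophages, and all 10 measured osteoclast markers of 12 had a difference above 0, with a list mean of 10.50 to 10.84 in Ocn+ cells and 8.39 to 10.27 in Osx+ cells. Oscar and Ocstamp, an activating receptor and a fusion protein of osteoclasts, differed by 3.82 (SE 0.65) and 2.92 (SE 0.66). Neutrophils share Lyz2, and 11 of their 13 measured markers were above 0, with a list mean of 10.06 to 10.24 in Ocn+ cells and 7.07 to 9.81 in Osx+ cells, and those of smallest p were Ctsg at 4.29 (SE 1.05) and Prtn3 at 3.61 (SE 0.99). On Osx+ replicate 4, where Csf1r and Cd68 were lowest, the osteoclast and neutrophil means were lowest too. So were the means of the pan-leukocyte, dendritic cell, complement partner and CSF1 axis lists. The remaining lists were lowest on other arrays. All 10 endothelial markers were above 0 as well, with a list mean of 9.85 to 10.51 in Ocn+ cells and 6.07 to 9.11 in Osx+ cells, among them Cdh5 at 3.44 (SE 0.54) and Flt4 at 2.99 (SE 0.67).

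Leukocyte markers as a whole overlapped between the groups. The 10 pan-leukocyte genes averaged 10.67 to 11.13 on the Ocn+ arrays and 10.09 to 11.66 on the Osx+ arrays, with a median difference of 0.06. Ptprc, the leukocyte common antigen, stood at 5.50, 5.07 and 6.34 in Ocn+ cells, below all of 7.01, 8.34, 6.55 and 6.41 in Osx+ cells (difference -1.44, SE 0.52, limma adjusted p = 0.898). Tyrobp, an adaptor of myeloid receptors, went the other way at 0.54 (SE 0.42). The 7 measured monocyte genes averaged 9.93 to 10.38 on the Ocn+ arrays and 9.31 to 10.71 on the Osx+ arrays, with a median difference of -0.09 and 4 of the 7 below 0. The monocyte genes of smallest p were Plac8 at 2.24 (SE 0.67) and Chil3 at 2.19 (SE 0.84). Dendritic cell genes had a median difference of 0.35 over 8 genes (Zbtb46 at 1.30, SE 0.64, and Flt3 at 0.39, SE 0.21). B lineage genes stood at -0.002 over 9 (Ebf1 at 0.70, SE 0.82, and Ms4a1 at -0.14, SE 0.17) and erythroid genes at -0.30 over 5 (Hba-a1 at -0.31, SE 0.18, and Epb42 at -0.19, SE 0.16). No gene of these lists passed over all genes.

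**Figure D5:**
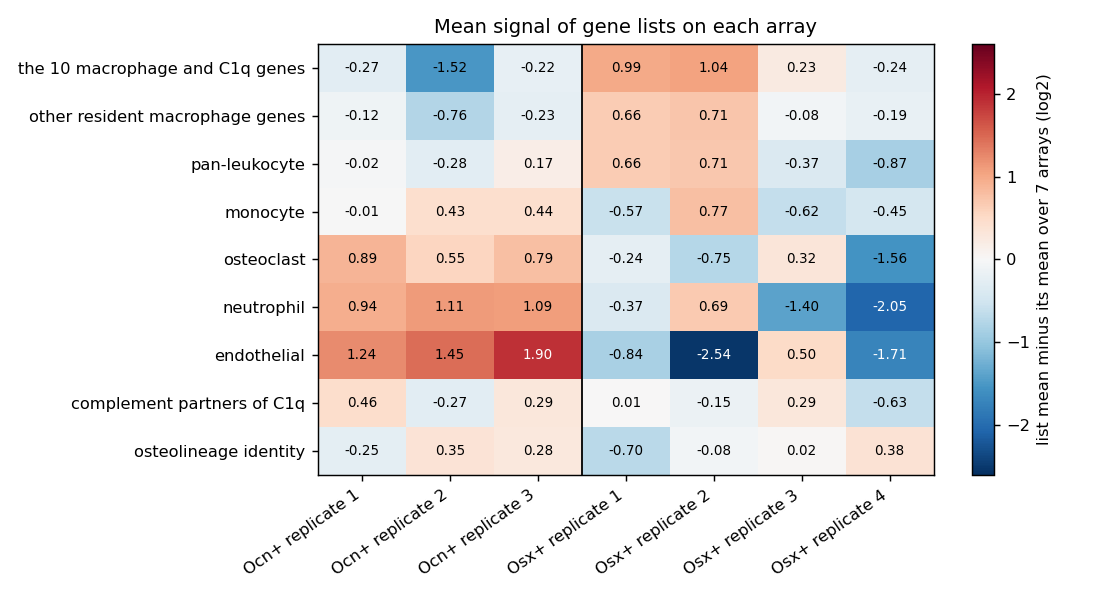
Mean log2 signal of 9 gene lists (rows) on the 3 Ocn+ arrays (left of the line) and 4 Osx+ arrays (right), each minus its mean over the 7 arrays, from blue (lower) to red (higher). The 10 macrophage and C1q genes run from -1.52 on Ocn+ replicate 2 to 1.04 on Osx+ replicate 2, while the osteoclast, neutrophil and endothelial lists are above their mean on all 3 Ocn+ arrays.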

How the data were processed

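The 7 arrays were grouped by their titles into Ocn+ (3) and Osx+ (4). Per the submitters' processing notes the authors used RMA, which subtracts background, gives all arrays one distribution and summarizes probes. The deposited table has 1 log2 value per probe set and array, and the program behind it was not given in the sources used here. Such values hold no read depth or detection call, so the number of arrays limits precision and it is not known whether a dim value lies above background.

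Of 22690 probe sets 64 were controls, 691 had several gene symbols and 1555 none listed. The other 20380 were named from the platform annotation, 20351 of them updated by Entrez identifier. Each gene took its probe set of highest mean. Differences are Ocn+ minus Osx+ from limma 3.58.1 (R 4.3.3; lmFit and eBayes, no block, 2-sided), adjusted by Benjamini-Hochberg over 12393 genes with a threshold of 0.05. Other probe sets come from the same fit over all 20380. Folds are 2 to the power of the absolute difference between the group means of log2 values, brighter over dimmer.

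The genes and lists were chosen with earlier results of these data known. Named genes are the 10 members, the 8 genes of highest r with the C1q mean among genes above the median signal, and the 2 of smallest p per list, since no gene passed; others are said to be named after their values were seen or are defining markers. Alternatives were quantile normalization, median centring, a filter at the 25th percentile of signal, the mean or the most variable probe set per gene, a trended robust prior, array weights, the replicate number as a block, Xist class as a term (split at a log2 value of 8) and leaving out each array.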

Additional observations from a re-analysis of the deposited data

How the results depend on the processing

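Under every alternative tried limma called 0 of the 10 genes, and Adgre1, Ms4a7, Mpeg1, Mrc1, C1qa, C1qb, C1qc and Lyz2 stayed below 0. The lowest adjusted p of a member was 0.093, for Mpeg1 with array weights. Csf1r and Cd68 reversed without Osx+ replicate 4 (-0.046 and -0.091) and with the replicate number as a block (-0.046 and -0.091). Leaving out each array, they ran from -0.046 to 0.477 and from -0.091 to 0.482. The replicate block can use no array without a same-numbered partner, so it leaves out Osx+ replicate 4, and its median over the members was -1.93. Same-numbered arrays deviated together at r = 0.63, 0.45 and -0.30, so the numbers were not taken to pair samples, and the block called 0 genes in all. Leaving out each array gave a median of -1.93 to -0.95 and 8 to 10 members below 0. Members below all Osx+ arrays numbered 2 to 6 (3.87% to 5.86% of all genes), or 6 to 7 relative to Csf1r (1.99% to 10.4%). Those lower at an unadjusted p under 0.05 by limma numbered 2 to 6 (0.92% to 3.45%). The last 3 counts were chosen after seeing the data. Over all genes limma called 0 in the fit reported, 97 with array weights, where Ocn+ replicate 2 weighed 6.02 and Osx+ replicate 1 0.24, and 0 to 3 without single arrays; the cause was not tested. With weights the median was -1.98, with the Xist class as a term -1.46, and with the other alternatives it lay between -1.65 and -1.61.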
